A study of Mus musculus with 12 samples.

Results

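The 46 genes described here encode MYC, the transcription factor, the polyamine synthesis enzymes Odc1 and Srm, and proteins that make and assemble ribosomes, mainly in the nucleolus. They were chosen by name from the 24881 gene entries of the series, and each of the 46 was found in the tables of all 12 libraries. Each library came from the bone marrow of 1 mouse with an acute myeloid leukaemia whose driver, MLL-AF9, is a fusion protein known from human patients. Leukaemia cells were recognised by their GFP and sorted, so all groups share the MLL-AF9 transgene and the GFP gate. The relapse group held 4 mice sampled 10 days after doxorubicin plus cytarabine had ended, the iCT group held 3 mice sampled 3 days after the same induction chemotherapy, and the vehicle group held 5 mice given vehicle in place of the 2 drugs. Neither the age, strain and sex of the mice nor the promoter of the transgene or the number of donor leukaemias is stated in the labels.

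Ribosome assembly begins in the nucleolus, where RNA polymerase I copies the rRNA genes into a long precursor. Small nucleolar ribonucleoproteins modify this precursor, the small subunit processome and its partners cut and fold the part that becomes the small subunit, and a separate set of factors builds the large subunit. MYC is known to bind promoters that hold the E-box CACGTG and to raise many genes of this pathway, together with enzymes of polyamine synthesis such as Odc1 and Srm. Leukaemia cells driven by MLL fusions are known to depend on MYC.

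The E-box was searched in promoter windows of RefSeq (build GRCm38.p6), which run from 250 bases before to 50 bases after a gene's start. CACGTG is its own reverse complement, so 1 search covers both strands. A window was given for 37 of the 46 members, and 9 of these 37 (24.3%) held CACGTG in at least 1 window. This compares with 12.3% of the 8318 tested genes with a window and 8.09% of all 27025 genes with a window. The 9 were Wdr43, Nop2, Mybbp1a, Nle1, Tsr1, Utp18, Utp20, Pes1 and Ltv1. A match is a description of letters and not a bound site. The windows of the 5 of these genes with the smallest p between iCT and vehicle are shown because they place the MYC motif beside the start site of members whose levels are given below. The capitals mark CACGTG. Wdr43 lies at chr17:71615965-71616264 (+ strand), Nop2 at chr6:125131633-125131932 (+ strand), Mybbp1a at chr11:72441077-72441376 (+ strand), Nle1 at chr11:82908346-82908645 (- strand) and Tsr1 at chr11:74897830-74898129 (+ strand). With the start in RefSeq as base 1, the motif begins at base 18 in Wdr43, 41 in Mybbp1a, 24 in Nle1 and 25 in Tsr1, and 60 bases before the start in Nop2. These starts are those of the deposited tables too, except in Mybbp1a, whose deposited start lies 51 bases further downstream, so that the motif begins 11 bases before it.
Wdr43: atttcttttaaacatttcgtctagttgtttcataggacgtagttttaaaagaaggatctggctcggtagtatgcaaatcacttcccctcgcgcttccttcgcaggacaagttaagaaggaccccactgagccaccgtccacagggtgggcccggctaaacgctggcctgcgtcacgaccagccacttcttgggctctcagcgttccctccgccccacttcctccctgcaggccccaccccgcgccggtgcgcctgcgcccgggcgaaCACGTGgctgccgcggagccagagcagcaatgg
Nop2: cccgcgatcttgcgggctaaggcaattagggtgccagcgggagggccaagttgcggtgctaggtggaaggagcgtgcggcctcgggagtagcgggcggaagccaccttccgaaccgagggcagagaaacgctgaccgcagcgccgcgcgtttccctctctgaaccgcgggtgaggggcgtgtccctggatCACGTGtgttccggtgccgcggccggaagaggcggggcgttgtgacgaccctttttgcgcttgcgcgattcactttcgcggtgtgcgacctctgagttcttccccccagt
Mybbp1a: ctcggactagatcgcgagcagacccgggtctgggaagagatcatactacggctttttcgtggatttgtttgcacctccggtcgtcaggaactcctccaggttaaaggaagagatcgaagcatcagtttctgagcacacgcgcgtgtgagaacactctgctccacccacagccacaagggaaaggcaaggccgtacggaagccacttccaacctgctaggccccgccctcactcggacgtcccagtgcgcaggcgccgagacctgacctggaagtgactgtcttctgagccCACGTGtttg
Nle1: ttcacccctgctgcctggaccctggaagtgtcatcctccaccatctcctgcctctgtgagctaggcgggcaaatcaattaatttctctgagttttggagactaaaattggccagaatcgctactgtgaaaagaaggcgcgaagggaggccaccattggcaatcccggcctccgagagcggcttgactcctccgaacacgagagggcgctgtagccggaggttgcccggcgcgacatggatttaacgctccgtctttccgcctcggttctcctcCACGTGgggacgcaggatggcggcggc
Tsr1: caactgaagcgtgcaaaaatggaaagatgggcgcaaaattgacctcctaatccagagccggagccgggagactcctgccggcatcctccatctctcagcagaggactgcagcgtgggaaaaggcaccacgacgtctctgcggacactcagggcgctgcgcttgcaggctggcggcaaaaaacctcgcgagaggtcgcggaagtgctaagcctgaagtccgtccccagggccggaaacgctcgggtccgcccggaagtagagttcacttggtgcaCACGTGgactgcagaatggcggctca
No window was given for Rrp12, Myc, Bop1, Rrs1, Srm, Gnl2, Fbl, Tcof1 and Npm1. Between iCT and vehicle the median log2 change was 0.32 over the 9 members with the motif and 0.24 over the 28 members without it. The changes ran from -0.41 to 0.47 with the motif and from -0.17 to 0.79 without it. Of the 9 with the motif 1 rose, and of the 28 without it 6 rose (against 3.31% of all genes). Between relapse and iCT the medians were -0.11 with the motif and -0.26 without it, with 0 and 4 members called lower (against 3.1% of all genes). Between relapse and vehicle they were 0.14 and 0.06. No difference between the 2 sets was tested.

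Expression was deposited as FPKM, which counts fragments per length of transcript and per size of library, with the bounds of an interval from which the fragments behind each value were worked out. The implied fragments per library were 2780819 to 7484368 in relapse, 361914 to 8359793 in iCT and 1225254 to 6171368 in vehicle. The lowest was iCT mouse 1, in which the median member rested on 48.1 implied fragments, against 101 to 773 in the 11 other libraries. In that library Tcof1 rested on 4.63 fragments, Utp18 on 9.0 and Rrp9 on 11.9, so its values for these 3 members are imprecise. Of the 46 members 21 had their highest value of all 12 libraries in iCT mouse 1 and 7 had their lowest, and the counts of members called are therefore also given without it. Vehicle mouse 1 held the lowest of the 12 values for 19 members. Ptprc, Hoxa9 and Meis1 were above 0 in every library (Hoxa9 49.8 to 66.5 FPKM in relapse, 55.8 to 75.8 in iCT and 41.7 to 59.7 in vehicle). Values above 0 do not identify the labelled cell type. Of the 12 leukaemia and progenitor markers that include these 3 genes, Kit and Cd34 fell in iCT against vehicle and 0 rose. Their means were 6.84 and 26.9 FPKM in iCT and 25.8 and 89.7 FPKM in vehicle.

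All 46 members were above 0 in every library, and all 46 passed the filter of at least 1 FPKM in at least 3 libraries, which left 11019 genes. Their FPKM summed to between 0.395% and 0.545% of a library's total, and Npm1 alone made up 24.5% to 33.8% of that sum. The median member varied by 8.46% between relapse mice, 18.1% between iCT mice and 11.9% between vehicle mice (coefficient of variation). Differences were tested with limma on log2(FPKM + 1), with p-values adjusted over all 11019 genes by the Benjamini-Hochberg method, and a gene passed at an adjusted p under 0.05. Coordinates are those of the deposited tables, which match GRCm38, counted from 1, and fold sizes are log2 changes on that scale, which understates the change of genes of a few FPKM.

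**Figure D1:**
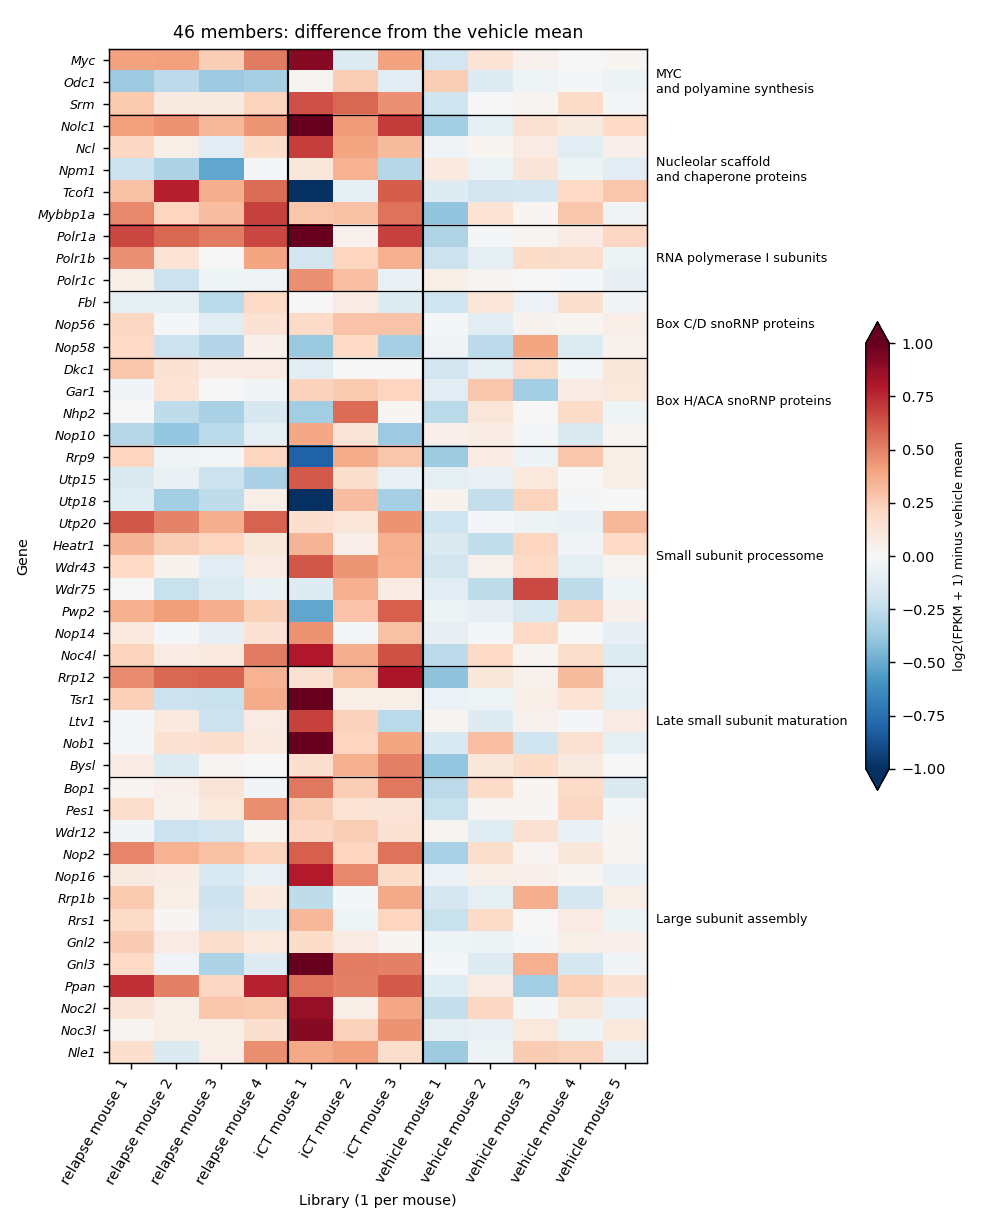
Colour gives log2(FPKM + 1) of each of the 46 members (rows, ordered by role) in each library (columns) minus the mean of the 5 vehicle libraries; black lines part the roles and the groups. Red cells fill most of the 3 iCT columns, with dark blue cells of Tcof1, Rrp9 and Utp18 in iCT mouse 1, while Odc1 is blue in all 4 relapse columns.

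In iCT cells 9 of the 46 members rose against vehicle and 0 fell. They were Srm, Nolc1, Ncl, Wdr43, Noc4l, Bop1, Nop16, Gnl3 and Ppan, and their log2 changes ran from 0.44 to 0.79 (limma, Benjamini-Hochberg adjusted p 0.00505 to 0.0429). The share that rose was 19.6%, against 3.31% of all genes tested, and the share that fell was 0, against 6.31%. The median log2 change was 0.24 over the members and -0.08 over all genes, and 40 of the 46 members had a positive change, against 41.8% of all genes. In 13 members (28.3%) every iCT value lay above every vehicle value, which held for 5.49% of all genes, and in 0 members did every iCT value lie below, against 10.6% of all genes.

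How firmly these members were called varied with the fit and the mice used. Over all 24 alternative fits the calls held in 24 for Srm, 21 for Nolc1 and 10 to 20 for the other 7. All but Srm lost their call in a fit of only the 2 groups compared and with the replicate block. Leaving out 1 vehicle mouse gave 3 to 6 calls, 3 without vehicle mouse 5 (against 1.77% of all genes higher). Without iCT mouse 1, 2 members rose, Srm and Nolc1 (4.35% of members, against 2.11% of all genes), and 0 fell (against 4.15%). The causes were not tested. The 9 called members had changes of 0.33 to 0.56 without iCT mouse 1, with adjusted p of 0.0160 to 0.110 (limma, Benjamini-Hochberg). In all 9 the 3 iCT mice lay above every vehicle mouse. Positive changes and separation of the 2 remaining iCT mice were therefore fixed beforehand and are no further support. Over the whole list 40 members again had a positive change without that mouse. There 17 (37%, against 9.28% of all genes) lay wholly above vehicle, while 0 lay wholly below (against 14.1%). Such counts cannot fall when a mouse is left out. In each iCT library by itself the median member stood above the vehicle mean, by 0.34, 0.25 and 0.30 on the log2 scale for mice 1, 2 and 3, while the median of all genes stood at -0.18, -0.05 and -0.02. Both medians were near 0 in vehicle libraries 2 to 5, and vehicle mouse 1 had a member median of -0.15.

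**Figure D2:**
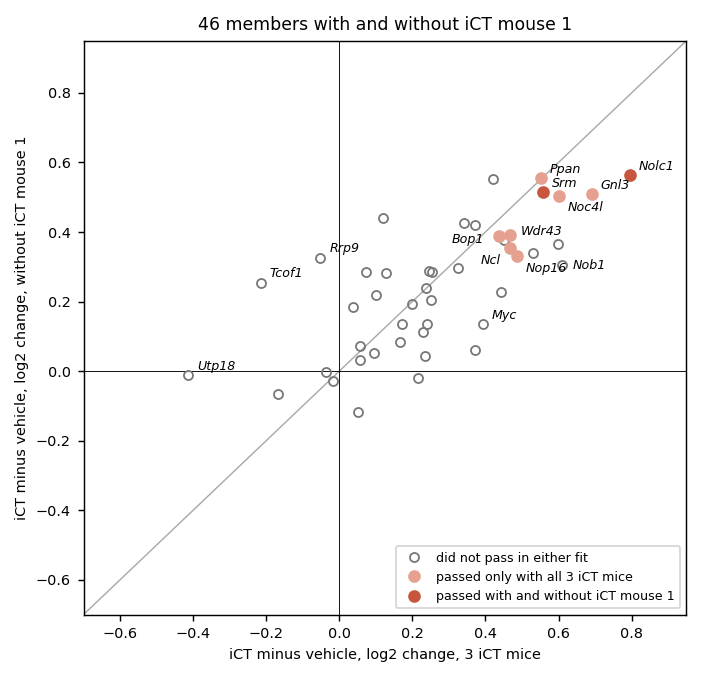
Each point is 1 of the 46 members; the horizontal axis gives its iCT minus vehicle log2 change with all 3 iCT mice and the vertical axis the same change without iCT mouse 1, with equal values on the diagonal. Srm and Nolc1 passed in both fits, 7 members passed only with all 3 iCT mice, and Tcof1 and Rrp9 had negative changes with that mouse and positive changes without it.

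**Figure D3:**
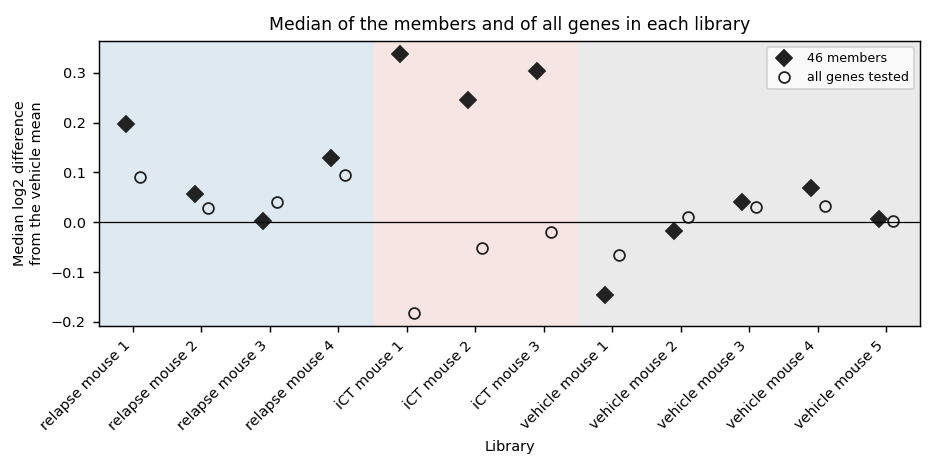
For each library the diamond gives the median of the 46 members and the open circle the median of all 11019 genes, as log2(FPKM + 1) minus the mean of the 5 vehicle libraries; shading marks the groups. The diamonds of the 3 iCT mice lie at 0.25 to 0.34, above their open circles at -0.18 to -0.02, and those of the 4 relapse mice lie at 0.00 to 0.20.

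Between relapse and iCT 5 members fell and 0 rose. They were Gnl3, Srm, Nop16, Odc1 and Ncl, with log2 changes of -0.38 to -0.76 (limma, Benjamini-Hochberg adjusted p 0.0196 to 0.0492). The share that fell was 10.9%, against 3.1% of all genes, and the share that rose was 0, against 6.62%. The median change was -0.21 over the members and 0.16 over all genes, and 15 of 46 members had a positive change, against 66.3% of all genes. In 12 members (26.1%, against 6.33% of all genes) every relapse value lay below every iCT value, and in Dkc1 alone (2.17%, against 16.9%) every relapse value lay above. Without iCT mouse 1, 0 members fell (against 2.18% of all genes) and 0 rose (against 5.26%). In that fit 16 (34.8%, against 10.1%) lay wholly below iCT and 1 (2.17%, against 24.1%) wholly above, counts that cannot fall when a mouse is left out. The adjusted p of the 5 without that mouse was 0.052 for Gnl3, 0.0673 for Odc1, 0.078 for Srm, 0.0833 for Nop16 and 0.139 for Ncl (limma). This comparison and that of iCT with vehicle share the 3 iCT libraries, so a high value in one of them moves both.

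The median of all genes moved with the scaling, while the sign of the members' median did not change. Between relapse and iCT the median of all genes was 0.16 as deposited, 0.06 under median-of-ratios scaling, 0.02 under quantile normalization and 0.00 once trends with the length and GC content of transcripts had been taken out. The members' median was -0.21, -0.31, -0.25 and -0.34 in the same order, and its difference from the median of all genes was -0.37, -0.38, -0.28 and -0.34. Members that fell numbered 5 as deposited (against 3.1% of all genes), 10 under median-of-ratios scaling (against 4.71%), 5 under quantile normalization (against 3.81%) and 11 without the trends (against 5.78%), and 0 rose in any of these fits (against 6.62%, 4.56%, 3.91% and 4.59% of all genes). Between iCT and vehicle the median of all genes was -0.08, -0.04, 0.01 and 0.02 in that order and the members' median 0.24, 0.29, 0.26 and 0.33. Members that rose numbered 9, 12, 12 and 16 (against 3.31%, 4.63%, 4.77% and 6.07% of all genes), and 0 fell in any of the 4 fits (against 6.31%, 5.69%, 5.17% and 5.76%).

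Between relapse and vehicle 0 of the 46 members passed, and 0 of all 11019 genes did (limma, Benjamini-Hochberg). At an unadjusted p under 0.05 there were 9 members (19.6%), against 14.6% of all genes. The median change was 0.07 over the members and 0.06 over all genes. In 9 members (19.6%, against 9.72% of all genes) every relapse value lay above every vehicle value, namely Myc, Nolc1, Tcof1, Polr1a, Utp20, Pwp2, Rrp12, Nop2 and Gnl2, and in Odc1 alone (2.17%, against 4.03%) every relapse value lay below. A fit of these groups alone called Myc, Polr1a and Utp20 higher and Odc1 lower (6.52% of members higher, against 3.78% of all genes, and 2.17% lower, against 1.87%), and array weights called 7 members higher and 1 lower (15.2%, against 5.86% of all genes, and 2.17%, against 2.95%). Across 10595 genes the change between relapse and vehicle had a Spearman correlation of 0.353 with GC content and of 0.245 with transcript length. With both trends removed the members' median was 0.02.

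**Figure D4:**
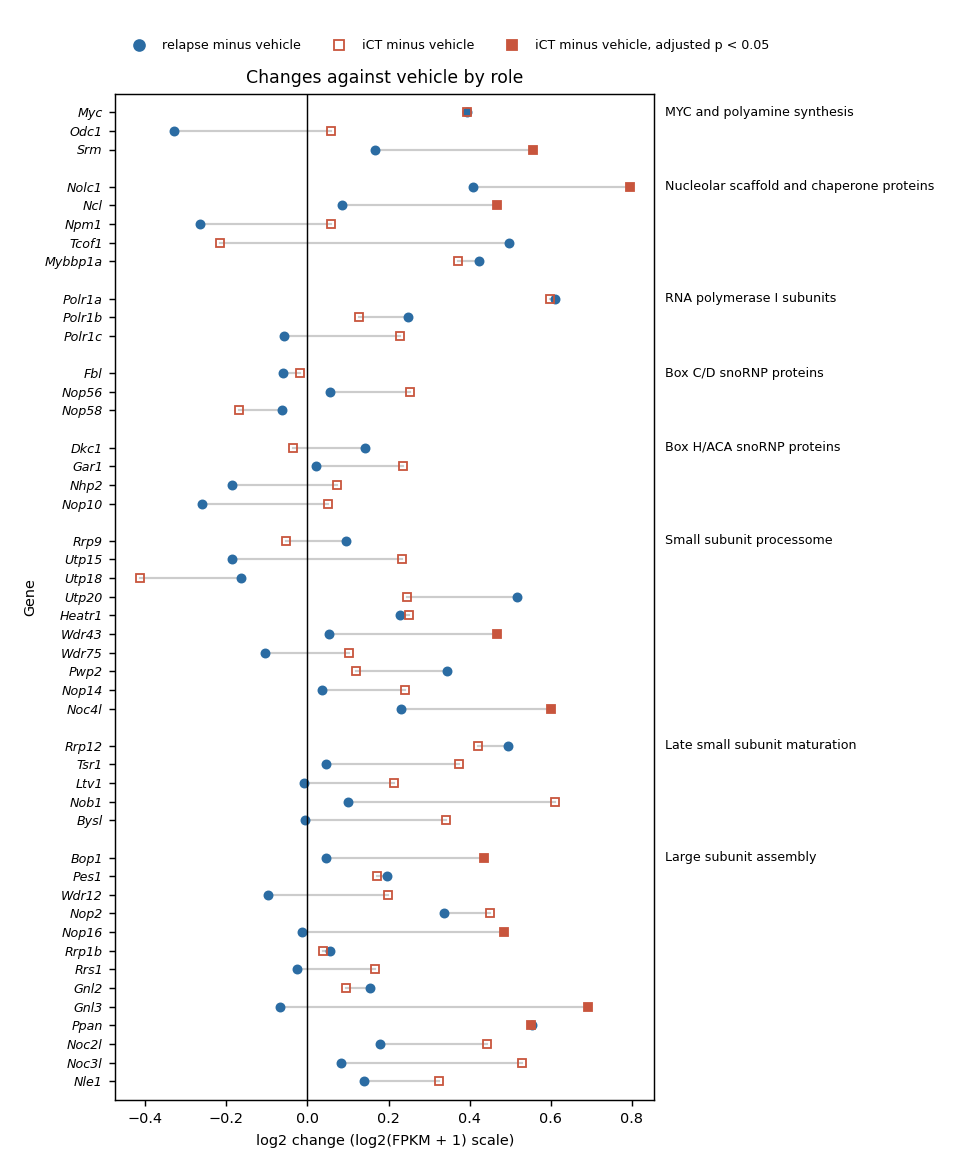
For each member (rows, grouped by role) the blue circle gives the relapse minus vehicle log2 change and the red square the iCT minus vehicle change, filled where the adjusted p was under 0.05; a grey line joins the pair, and both use the same 5 vehicle mice. The squares of all 13 large subunit factors lie right of 0, and Polr1a and Ppan have circle and square at nearly the same place.

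Among MYC and the polyamine enzymes, Srm gave the most stable call of the list. Srm (chromosome 4, 148591513 to 148594619), spermidine synthase, had 155, 138, 138 and 152 FPKM in relapse, 203, 193 and 179 FPKM in iCT and 113, 129.9, 132, 148 and 128 FPKM in vehicle. All 3 iCT mice lay above every other mouse, and the relapse range overlapped the vehicle range. Srm rose in iCT against vehicle (log2 change 0.56, SE 0.10, limma adjusted p = 0.00505) and fell in relapse against iCT (-0.39, SE 0.10, adjusted p = 0.0303). Its call against vehicle held in all 24 alternative fits, with changes of 0.48 to 0.61 and adjusted p of 0.00159 to 0.0499, while that of relapse against iCT held in 16 of 24, with adjusted p of 0.00707 to 0.0929. Between relapse and vehicle the change was 0.17 (95% interval -0.02 to 0.36, adjusted p = 0.413).

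Odc1, ornithine decarboxylase, makes the putrescine from which spermidine is built. Odc1 (chromosome 12, 17544873 to 17551502) had 136, 146, 136 and 139 FPKM in relapse, 178, 208 and 162 FPKM in iCT and 207, 159.7, 169.8, 172 and 169 FPKM in vehicle. The 4 relapse values lay below all 8 other values, and the iCT and vehicle values overlapped. Odc1 fell in relapse against iCT (log2 change -0.39, SE 0.11, limma adjusted p = 0.0406), a call kept in 10 of 24 alternatives with adjusted p of 0.0215 to 0.147. Against vehicle the relapse change was -0.33 (SE 0.09, adjusted p = 0.18), and the iCT change was 0.06 (95% interval -0.17 to 0.28). Myc (chromosome 15, 61985341 to 61990361), the gene of the transcription factor itself, had 83.4, 84.0, 74.9 and 90.5 FPKM in relapse, 119, 57.2 and 83.7 FPKM in iCT and 54.9, 69.2, 64.9, 62.9 and 64.0 FPKM in vehicle. Every relapse mouse lay above every vehicle mouse, whereas the iCT mice included both the highest and nearly the lowest of the 12 values. The changes were 0.39 in relapse against vehicle (95% interval 0.04 to 0.75, limma adjusted p = 0.303), 0.39 in iCT against vehicle (adjusted p = 0.163) and 0.00 in relapse against iCT (95% interval -0.41 to 0.41). Without iCT mouse 1 the Myc change in iCT against vehicle was 0.13.

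Of the 5 nucleolar scaffold and chaperone proteins 2 rose in iCT against vehicle and 0 fell (against 3.31% and 6.31% of all genes). Without iCT mouse 1 only Nolc1 passed (against 2.11% of all genes higher and 4.15% lower). Nolc1 (chromosome 19, 46075847 to 46085543), a chaperone of small nucleolar ribonucleoproteins, had 34.7, 35.7, 32.8 and 35.6 FPKM in relapse, 63.2, 35.2 and 42.6 FPKM in iCT and 20.2, 24.1, 28.9, 27.6 and 29.9 FPKM in vehicle. No vehicle mouse reached a relapse or iCT mouse, and relapse overlapped the lowest iCT mouse. Nolc1 rose in iCT against vehicle (log2 change 0.79, SE 0.17, limma adjusted p = 0.0166), by 0.56 without iCT mouse 1 (adjusted p = 0.0404). Its change in relapse was 0.41 against vehicle (adjusted p = 0.266) and -0.39 against iCT (adjusted p = 0.178). Ncl, nucleolin, binds nascent pre-rRNA. Its gene (chromosome 1, 86344719 to 86359455) had 106, 95.4, 85.4 and 104 FPKM in relapse, 149, 121 and 114 FPKM in iCT and 89.7, 92.9, 97.0, 84.7 and 94.9 FPKM in vehicle. The iCT mice lay above all others, and relapse and vehicle overlapped. Ncl rose in iCT against vehicle (0.47, SE 0.11, limma adjusted p = 0.0198) and fell in relapse against iCT (-0.38, SE 0.11, adjusted p = 0.0492). The second call held in 7 of 24 alternatives.

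Npm1, nucleophosmin, is an abundant nucleolar chaperone whose gene is often mutated in human acute myeloid leukaemia, and it had the highest FPKM of the list. Its gene (chromosome 11, 33152498 to 33163206) had 959.7, 897, 775 and 1099.6 FPKM in relapse, 1202, 1416 and 913 FPKM in iCT and 1188, 1071, 1214, 1072 and 1029.5 FPKM in vehicle. All 3 groups overlapped, and the lowest value was that of a relapse mouse. Its changes were 0.06 in iCT against vehicle (95% interval -0.25 to 0.36), -0.32 in relapse against iCT (limma adjusted p = 0.17) and -0.27 in relapse against vehicle (adjusted p = 0.378). Npm1 is known to have processed pseudogenes, with which its fragments could be shared. Tcof1, treacle, which links rRNA transcription to processing, ranged over 10.8 to 15.6 FPKM in relapse, 3.34 to 13.7 FPKM in iCT and 7.52 to 10.7 FPKM in vehicle, so every relapse mouse lay above every vehicle mouse by a narrow margin (adjusted p = 0.441, limma). Mybbp1a, a nucleolar regulator of transcription with an E-box in the window shown, averaged 87.2 ± 12.9 FPKM in relapse, 83.7 ± 9.0 in iCT and 65.0 ± 10.9 in vehicle (SD, with n = 4, 3 and 5 here and below), and every iCT value lay above every vehicle value (0.37; limma adjusted p = 0.123).

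**Figure D5:**
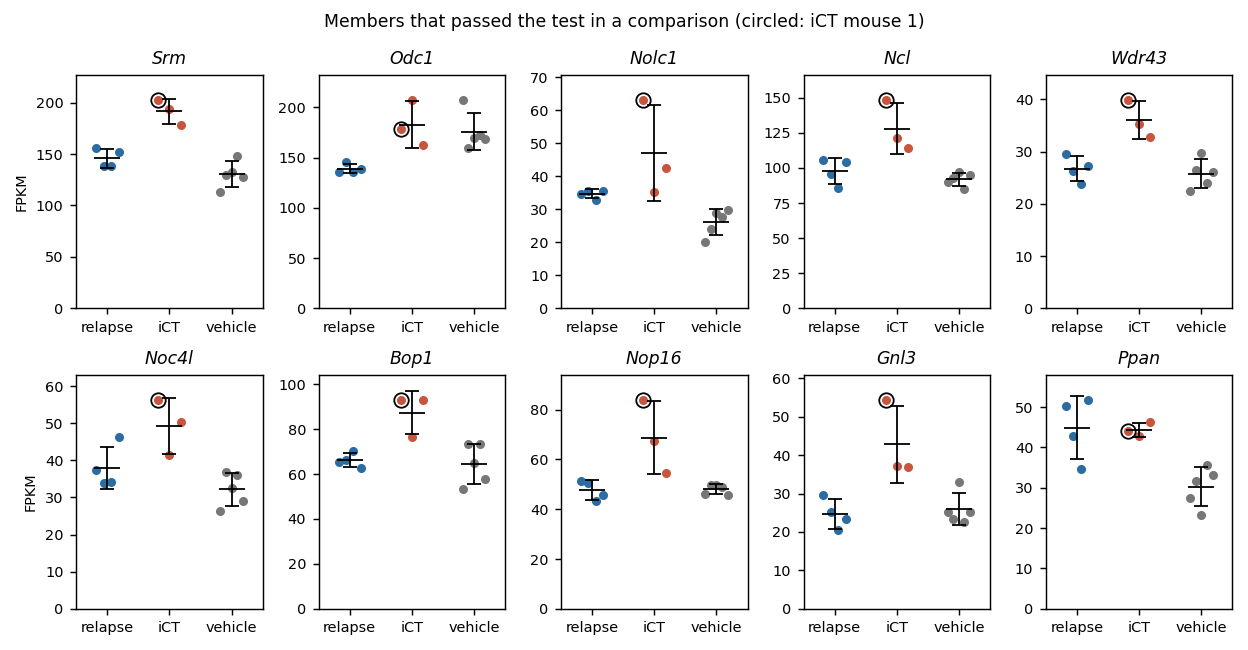
FPKM of the 10 members that passed the test in at least 1 comparison, with 1 point per mouse (relapse, iCT and vehicle from left to right), black bars for mean and SD, and a ring on iCT mouse 1. In 9 of the 10 panels all 3 iCT mice lie above all 5 vehicle mice, and in Odc1 the 4 relapse mice lie below all others.

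Of the RNA polymerase I subunits 0 of 3 passed in any comparison. Of all genes 3.31% rose and 6.31% fell in iCT against vehicle. In relapse against iCT 6.62% rose and 3.1% fell, and 0% passed in relapse against vehicle. Polr1a (chromosome 6, 71909053 to 71979360), the largest catalytic subunit, had 16.8, 15.7, 15.1 and 16.7 FPKM in relapse, 22.4, 10.5 and 17.0 FPKM in iCT and 8.06, 10.0, 10.4, 10.8 and 11.9 FPKM in vehicle. All 4 relapse mice lay above all 5 vehicle mice, while iCT mouse 2 lay within the vehicle range. The changes were 0.61 in relapse against vehicle (SE 0.18, limma adjusted p = 0.181) and 0.60 in iCT against vehicle (adjusted p = 0.0715), and the relapse change was 0.30 with length and GC trends removed. Polr1b (chromosome 2, 129100996 to 129126595), the second large catalytic subunit, had 20.2, 16.0, 14.5 and 19.4 FPKM in relapse, 12.7, 16.9 and 18.8 FPKM in iCT and 12.4, 13.5, 16.6, 16.5 and 13.9 FPKM in vehicle. Its groups overlapped in every comparison, with changes of 0.13 in iCT against vehicle, 0.12 in relapse against iCT and 0.25 in relapse against vehicle. Polr1c, shared with RNA polymerase III, averaged 51.6 ± 4.10 FPKM in relapse, 63.7 ± 11.8 in iCT and 53.6 ± 2.02 in vehicle.

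The proteins that modify rRNA showed no call in any comparison. Fbl (chromosome 7, 28169748 to 28179269), fibrillarin, the methyltransferase of box C/D ribonucleoproteins, had 307, 307, 270.4 and 376 FPKM in relapse, 327, 345 and 297 FPKM in iCT and 285, 356, 313, 365 and 321 FPKM in vehicle. Its ranges overlapped in all 3 groups, and its 95% interval of -0.27 to 0.23 for iCT against vehicle does not reach the log2 change of Srm. Nop56 and Nop58 form the scaffold around fibrillarin. Nop56 averaged 85.5 ± 8.55 FPKM in relapse, 97.9 ± 3.62 in iCT and 82.0 ± 3.92 in vehicle, with all iCT values above all vehicle values (0.25; limma adjusted p = 0.0921), while Nop58 had a change of -0.17. Dkc1 (chromosome X, 75095854 to 75109776), dyskerin, the pseudouridine synthase of box H/ACA ribonucleoproteins and of telomerase, had 42.3, 38.6, 36.6 and 36.9 FPKM in relapse, 32.4, 34.7 and 34.8 FPKM in iCT and 30.5, 32.5, 39.9, 34.4 and 37.7 FPKM in vehicle. Its relapse values lay above all iCT values and overlapped the vehicle values, and its log2 changes were 0.18 in relapse against iCT (95% interval -0.06 to 0.42), 0.14 in relapse against vehicle and -0.04 in iCT against vehicle. The partners of dyskerin, Gar1, Nhp2 and Nop10, had changes of 0.24, 0.07 and 0.05 in iCT against vehicle. The median over the box C/D proteins was -0.02 and that over the box H/ACA proteins 0.06, the lowest of the 8 roles, although no test between roles was run.

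In the small subunit processome 2 of 10 members rose in iCT against vehicle and 0 fell (against 3.31% and 6.31% of all genes), and the median change was 0.24. With iCT mouse 1 left out, 0 of the 10 passed (limma adjusted p = 0.0789 for Wdr43 and 0.0828 for Noc4l). Of all genes 2.11% rose and 4.15% fell in that fit. Wdr43 (chromosome 17, 71616215 to 71659031), whose yeast counterpart is Utp5 and which acts where transcription and processing of the precursor meet, had 29.6, 26.4, 23.8 and 27.3 FPKM in relapse, 39.97, 35.2 and 32.8 FPKM in iCT and 22.5, 26.5, 29.7, 24.1 and 26.2 FPKM in vehicle. All 3 iCT mice lay above the other 9. Wdr43 rose in iCT against vehicle (log2 change 0.47, SE 0.12, limma adjusted p = 0.0283), and its change in relapse against iCT was -0.41 (adjusted p = 0.0518). Noc4l (chromosome 5, 110648419 to 110653382), the partner of Nop14, had 37.5, 33.8, 34.2 and 46.2 FPKM in relapse, 56.3, 41.4 and 50.3 FPKM in iCT and 26.4, 36.8, 32.6, 36.1 and 28.9 FPKM in vehicle. The iCT values lay above the vehicle values, and 1 relapse mouse lay within the iCT range. Noc4l rose in iCT against vehicle (0.60, SE 0.15, adjusted p = 0.0266, limma). Utp20 (chromosome 10, 88746607 to 88826814), a very large scaffold protein, had 8.38, 7.62, 6.86 and 8.18 FPKM in relapse, 5.85, 5.64 and 7.35 FPKM in iCT and 4.33, 5.02, 4.91, 4.84 and 6.67 FPKM in vehicle. Each relapse mouse lay above each vehicle mouse, by a small step over vehicle mouse 5, and the relapse change against vehicle was 0.52 (SE 0.14, limma adjusted p = 0.18), or 0.30 with length and GC trends removed.

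The other 7 processome members did not pass in any comparison, and 4 of them depended on iCT mouse 1. Utp18 had 8.97 FPKM in that mouse and 27.6 and 17.4 FPKM in the other iCT mice, against 18.6 to 26.1 FPKM in vehicle. Rrp9, a protein of the box C/D particle that guides the first cuts, had 21.6, 50.2 and 47.1 FPKM in iCT, against 29.9 to 46.7 FPKM in vehicle. Pwp2 had 9.17, 16.8 and 21.0 FPKM in iCT, against 12.1 to 16.1 FPKM in vehicle, and Utp15 had 20.5, 14.7 and 12.4 FPKM in iCT, against 12.1 to 14.2 FPKM in vehicle. Mouse 1 was thus the lowest iCT mouse for the first 3 and the highest for Utp15. Without it the iCT changes were -0.01 for Utp18, 0.33 for Rrp9, 0.44 for Pwp2 and 0.04 for Utp15, against -0.41, -0.05, 0.12 and 0.23 with it. Heatr1, Nop14 and Wdr75 had iCT changes of 0.25, 0.24 and 0.10, and of the vehicle values of Wdr75 that of mouse 3 was the highest, 30.0 FPKM, with 15.5 to 18.1 FPKM in the rest.

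The 5 factors of late small subunit maturation had positive iCT changes against vehicle with a median of 0.37. Of the 5, 0 passed, where 3.31% of all genes rose and 6.31% fell. Nob1, the endonuclease that makes the last cut of the small subunit rRNA, had the largest, 0.61 (SE 0.20, limma adjusted p = 0.0684), with 81.5, 40.2 and 45.7 FPKM in iCT and 29.8 to 42.6 FPKM in vehicle. Its change was 0.31 without iCT mouse 1, which held by far the highest value. Tsr1 and Ltv1 likewise had their highest values in that mouse, 30.2 and 50.7 FPKM, and their changes were 0.06 and -0.02 without it, against 0.37 and 0.21 with it. Rrp12, an export factor, had the smaller change with that mouse, with 0.42 over all iCT mice and 0.55 without mouse 1. Its relapse values of 18.8 to 22.4 FPKM lay above the vehicle values of 10.8 to 18.4 FPKM (log2 change 0.49, limma adjusted p = 0.203). Bysl, bystin, a factor of the pre-small subunit, had an iCT change of 0.34 against vehicle and a relapse change of -0.35 against iCT.

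In large subunit assembly, the role with the most members, 4 of 13 rose in iCT against vehicle and 0 fell (against 3.31% and 6.31% of all genes), with a median of 0.44 and 13 of 13 positive. None of the 13 passed without iCT mouse 1 (against 2.11% of all genes higher and 4.15% lower), and the median was 0.30. The adjusted p was 0.078 for Gnl3, 0.086 for Ppan, 0.0937 for Nop16 and 0.11 for Bop1 (limma). Gnl3 (chromosome 14, 31012433 to 31019131), nucleostemin, a nucleolar GTPase first known from stem cells and cancer cells, had 29.6, 25.1, 20.5 and 23.4 FPKM in relapse, 54.4, 37.1 and 36.9 FPKM in iCT and 25.3, 23.4, 33.0, 22.6 and 25.2 FPKM in vehicle. The iCT mice lay above all relapse and vehicle mice, and among vehicle mice number 3 came nearest to them. Gnl3 rose in iCT against vehicle (log2 change 0.69, SE 0.17, limma adjusted p = 0.0248) and fell in relapse against iCT (-0.76, SE 0.17, adjusted p = 0.0196), and the relapse change against vehicle was -0.07 (95% interval -0.40 to 0.26). Nop16 (chromosome 13, 54584191 to 54590074) had 51.2, 50.7, 43.2 and 45.5 FPKM in relapse, 84.0, 67.3 and 54.7 FPKM in iCT and 46.01, 49.9, 49.8, 48.8 and 45.8 FPKM in vehicle. Again all iCT values lay above all others, with iCT mouse 3 close to the highest relapse mice. Nop16 rose in iCT against vehicle (0.49, SE 0.12, limma adjusted p = 0.0307) and fell in relapse against iCT (-0.50, SE 0.13, adjusted p = 0.0319).

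Bop1 (chromosome 15, 76452996 to 76477269), which forms a complex with Pes1 and Wdr12 that is needed to process the large subunit rRNA, had 65.4, 66.3, 70.3 and 62.9 FPKM in relapse, 93.0, 76.4 and 92.8 FPKM in iCT and 53.4, 73.2, 64.9, 73.4 and 58.0 FPKM in vehicle. The iCT mice lay above all others, mouse 2 by a small step. Bop1 rose in iCT against vehicle (0.44, SE 0.12, limma adjusted p = 0.0398), while its partners Pes1 and Wdr12 did not pass, at log2 changes of 0.17 and 0.20 and adjusted p of 0.326 and 0.188. The call of Bop1 held in 10 of 24 alternatives, with adjusted p of up to 0.175. Ppan (chromosome 9, 20888175 to 20892179), a processing factor whose yeast counterparts are the Ssf proteins, had 50.3, 42.9, 34.7 and 51.8 FPKM in relapse, 44.2, 42.8 and 46.2 FPKM in iCT and 27.4, 31.8, 23.4, 35.6 and 33.2 FPKM in vehicle. Both relapse and iCT lay mostly above vehicle, relapse mouse 3 being the exception, as it lay within the vehicle range. Ppan rose in iCT against vehicle (0.55, SE 0.15, limma adjusted p = 0.0429), a call that held in 11 of 24 alternatives with adjusted p of up to 0.169, and its relapse change was 0.55 against vehicle (adjusted p = 0.177) and 0.00 against iCT (95% interval -0.35 to 0.35).

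The 9 large subunit factors that did not pass between iCT and vehicle included 2 close to the threshold. Nop2, the rRNA methyltransferase whose promoter window is shown, had a change of 0.45 (limma adjusted p = 0.0506) and Noc3l one of 0.53 (adjusted p = 0.0571), and in both every iCT mouse lay above every vehicle mouse. Nop2 averaged 43.0 ± 3.56 FPKM in relapse, 46.8 ± 6.66 in iCT and 34.0 ± 4.41 in vehicle, and its relapse values also lay above all vehicle values. Noc3l was the member with the lowest FPKM in vehicle, at 4.95 ± 0.239 FPKM in relapse, 7.27 ± 2.05 in iCT and 4.63 ± 0.384 in vehicle. The iCT changes of Noc2l, Nle1, Rrs1, Gnl2 and Rrp1b were 0.44, 0.32, 0.17, 0.09 and 0.04. Gnl2, a GTPase related to Gnl3, averaged 34.1 ± 1.89 FPKM in relapse, 32.7 ± 1.93 in iCT and 30.5 ± 1.10 in vehicle, with a 95% interval of -0.10 to 0.29 for iCT against vehicle.

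The rest of the pathway was read in 5 lists of genes that are not members. Of their 132 tested genes 9 rose in iCT against vehicle (6.82%, against 3.31% of all genes) and 1 fell (0.758%, against 6.31%), and without iCT mouse 1 there were 6 that rose (4.55%, against 2.11%) and 1 that fell (0.758%, against 4.15%). The difference between these lists and the members was not tested. Among 40 other small subunit factors 4 rose in iCT against vehicle and 0 fell (median 0.15), with Rrp36 at 0.61 (limma adjusted p = 0.0142), Cirh1a at 0.65 (0.0216) and Nop9 at 0.50 (0.0389). Among 46 other large subunit factors 5 rose and 0 fell (median 0.22), with Lsg1 at 0.67 (limma adjusted p = 0.00734), Rrp15 at 0.50 (0.00930) and Ftsj3 at 0.62 (0.0216). Without iCT mouse 1 there were 3 higher and 0 lower in each of these lists, with adjusted p of 0.0554 for Cirh1a and 0.087 for Nop9 (limma) and calls kept for Rrp36, Lsg1, Rrp15 and Ftsj3. None of 14 other genes of the RNA polymerase I machinery and none of 23 genes of the RNA exosome and of RNase MRP and P passed, and of 9 other assembly factors of small nucleolar ribonucleoproteins Pih1d1 fell (-0.76, limma adjusted p = 0.0184, and 0.0418 without iCT mouse 1). Between relapse and iCT 6 of the 132 fell (4.55%, against 3.1% of all genes) and 1 rose (0.758%, against 6.62%). Those that fell were 4 small subunit factors, with Nop9 at -0.56, the large subunit factor Rrp15 at -0.48 and the small nucleolar ribonucleoprotein factor Nhp2l1 at -0.45 (limma adjusted p = 0.0266), and the gene that rose was Pih1d1 (0.75, limma adjusted p = 0.0227). With iCT mouse 1 left out, 3 fell (2.27%, against 2.18%) and 1 rose (0.758%, against 5.26%), Pih1d1 again (adjusted p = 0.0474, limma), while Nhp2l1 did not pass (0.0746). Between relapse and vehicle 0 genes of these 5 lists passed.

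Markers of cell division and of other cell types were read beside these results. The FPKM of 20 proliferation genes summed to 2299 to 2511 in relapse, 2188 to 2463 in iCT and 2036 to 2507 in vehicle, and in iCT against vehicle 1 of the 20 rose (Rrm2) and 1 fell (Top2a). Of 8 osteoclast markers 6 were tested between iCT and vehicle, and all 6 rose. The 8 summed to 43.2 to 165 FPKM in relapse, 259 to 990 in iCT and 22.8 to 75.6 in vehicle, the highest in iCT mouse 1. Of the 6, Dcstamp, Ocstamp and Atp6v0d2 averaged at most 0.17 FPKM in relapse and 0.37 in vehicle. They passed the filter only through the iCT libraries, so they could be tested only because they were high there. Of 12 macrophage markers 9 were tested, of which 6 rose in iCT and 1 fell. The 12 summed to 108 to 131 FPKM in relapse, 159 to 298 in iCT and 150 to 203 in vehicle. Mrc1, among the 6, averaged 0.115 FPKM in relapse and 0.227 in vehicle and passed the filter only through the iCT libraries. Of the mature neutrophil markers 3 of 11 rose in iCT and 0 fell (6562 to 15468 FPKM in relapse, 14497 to 18989 in iCT and 3827 to 14590.0 in vehicle), and 8 of the 11 changes were positive. Mmp9, among the 3, is also counted among the osteoclast markers that rose. Of 8 tested monocyte markers 5 fell and 0 rose (1171 to 2655 FPKM in relapse, 668 to 781 in iCT and 2773 to 3026 in vehicle). Among 12 markers of leukaemia and progenitor cells (11639 to 16275 FPKM in relapse, 13277 to 17984 in iCT and 13483 to 16638 in vehicle) Kit and Cd34 fell in iCT, to 6.84 ± 1.65 and 26.9 ± 4.09 FPKM, against 25.8 ± 1.21 and 89.7 ± 18.8 FPKM in vehicle (SD, n = 3 and 5). Of the other lists 4 of 9 erythroid entries fell in iCT against vehicle, namely Hbb-b1, Hbb-b2 and both loci of the symbol Hba-a1. Further, 1 of 3 B and plasma cell and 1 of 4 stromal and endothelial markers fell, 1 of 2 megakaryocyte markers rose, and 0 of 1 T and natural killer cell markers passed. The markers that rose in iCT without iCT mouse 1 were 3 of 3 osteoclast markers still tested, 5 of 8 macrophage, 2 of 11 neutrophil and 1 of 2 megakaryocyte markers. Those that fell were 1 macrophage, 5 monocyte, 3 erythroid (Hbb-b1 and both loci of Hba-a1), 0 B and plasma cell, 1 stromal and 2 leukaemia and progenitor markers. Of all genes 3.31% rose and 6.31% fell in iCT against vehicle, and 2.11% and 4.15% without iCT mouse 1. No marker of these lists was at 0 in all 12 libraries. Fewer cells of a type and less RNA per cell cannot be told apart in such bulk samples, and the part of these markers in the results on the members was not tested.

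Some members share their locus with another gene entry, and since the labels do not say whether the libraries kept strand, fragments of the 2 cannot be told apart. This held for 14 members, of which 11 overlapped an entry with a mean of at least 1 FPKM. Bysl overlapped Ccnd3 (169 FPKM), Nop56 overlapped Idh3b (65.8 FPKM) and Dkc1 overlapped Mpp1 (51.2 FPKM). Nop58 overlapped 2 small nucleolar RNA genes (at most 42.55 FPKM) and Nhp2 overlapped Rmnd5b (22.5 FPKM). The values of these members are the least certain. Of the 10 members that passed a test, Gnl3 overlapped Glt8d1 (5.63 FPKM), Bop1 overlapped Mroh1 and Scx (at most 11.8 FPKM), Ncl overlapped 2 small nucleolar RNA genes and a predicted gene (at most 2.78 FPKM) and Wdr43 overlapped entries at 0 FPKM, while Srm, Odc1, Nolc1, Noc4l, Nop16 and Ppan overlapped none.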

How the data were processed

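The deposited values are FPKM per gene, with an interval and a status for each, per the file headers of Cufflinks gene tables. STAR, Cufflinks and the build mm9 are named in the submitters' processing notes, but 99.4% of 23070 gene symbols overlapped the gene of the same name in GENCODE M21 on GRCm38. The labels state neither read length nor strandedness nor mapped totals. The implied fragments of a gene were taken as the square of its FPKM divided by the standard deviation that the interval implies; they came out whole, within 0.02, for only 50.2% to 55.5% of low values, so no count test was run. Loci in the tables count from 0 (8919 symbols start 1 base before their M21 gene and 784 at it), so 1 was added to each start. Each table held 24883 entries, and those with a failed estimate, 2 in all, were left out. No 2 of the 12 libraries held identical values.

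Differences were fitted with limma 3.58.1 in R 4.3.3 on log2(FPKM + 1), with group as the only term in 1 model over all 12 libraries, a trended prior variance and Benjamini-Hochberg adjustment over 11019 genes with at least 1 FPKM in at least 3 libraries. The fit was tested on simulated data in which a gene had the same spread in every library. That simulation therefore did not cover a library as shallow as iCT mouse 1. Alternatives changed the pseudocount, filter, scaling, weights, variance trend, libraries fitted and replicate block, and left out each library in turn; precision weights and the removal of length and GC trends were added after the data were seen. Members called in any comparison, the 4 with the smallest p in each and 10 set by name are given in every library; of other lists up to 3 called genes a comparison are named. Rrm2, Top2a, Kit, Cd34, Ptprc, Hoxa9 and Meis1 were picked from their lists for context. The members, lists and rules were chosen with earlier results of these data known. Mice are the replicates, as 1 library per mouse was deposited.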

Additional observations from a re-analysis of the deposited data

Results flagged for a closer look

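In 4 of 92 checks of a member within a group of 4 or 5 mice, 1 mouse stood apart from the rest of its group. Chance gives about 1 in 20, so the flags are no more frequent than chance. The checks are not independent, since members were measured in the same mice. All 4 were vehicle mice, and 3 were vehicle mouse 3. For Odc1, ornithine decarboxylase, vehicle mouse 1 had 207 FPKM and the other vehicle mice 159.7 to 172 FPKM. For Gnl3, nucleostemin, vehicle mouse 3 had 33.0 FPKM and the others 22.6 to 25.3 FPKM. Of the small subunit processome, Wdr75 had 30.0 FPKM in that mouse and 15.5 to 18.1 FPKM in the others, and Nop14 had 18.4 FPKM in it and 14.97 to 15.9 FPKM in the others. In Gnl3 the mouse that stood apart was the vehicle mouse nearest to the iCT mice.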

How the results depend on the processing

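The count of members called was the result that changed most. In iCT against vehicle it was 9, all higher (against 3.31% of all genes higher). It was 1 with array weights (against 1.31%), 1 in a fit of only the 2 groups compared (against 1.1%) and 16 with length and GC trends removed (against 6.07%), where the median change was 0.33. Leaving out 1 library gave 2 to 16. Among these were 2 without iCT mouse 1 (against 2.11%), 5 without vehicle mouse 1 (against 2.64%) or 3 (against 1.95%) and 3 without vehicle mouse 5 (against 1.77%). There were 16 without iCT mouse 2, where 15 were higher and 1 lower (against 8.9% and 15.9%). In relapse against iCT it was 5, all lower (against 3.1% of all genes lower). It was 10 after median-of-ratios scaling (median -0.31, against 4.71%), 11 with the trends removed (median -0.34, against 5.78%) and 2 with no variance trend (against 2.86%). It was 0 with array weights (against 2.15% lower and 3.32% higher) and in a fit of the 2 groups (against 0.97% and 1.38%). Leaving out 1 library gave 0 to 12. It was 0 without iCT mouse 1 (against 2.18% lower) or relapse mouse 3 or 4 (each against 1.83%). It was 1 without relapse mouse 2 (against 1.6%), 2 without relapse mouse 1 (against 1.99%) and 3 without vehicle mouse 3, 4 or 5 (against 2.78%, 2.67% and 2.44%). It was 12 without iCT mouse 3, where 1 was higher and 11 lower (against 12.8% and 4.17% of all genes). In relapse against vehicle it was 0 (against 0% of all genes). It was 8 with array weights (7 higher and 1 lower, against 5.86% and 2.95%) and 4 in the fit of the 2 groups (3 higher and 1 lower, against 3.78% and 1.87%). The causes were not tested. No called change reversed in any alternative. With 1 library left out this was fixed beforehand, since the groups compared did not overlap in any called member. Uncalled iCT changes changed sign without iCT mouse 1 in Tcof1 (0.25, against -0.21 with it), Nop10 (-0.12, against 0.05 with it), Rrp9 (0.33, against -0.05 with it) and Ltv1 (-0.02, against 0.21 with it). Mouse numbers name mice and do not pair them: deviations of same-numbered mice correlated at -0.09 to 0.10. A replicate block on the number gave 1 call in iCT against vehicle, a higher one (against 0.617% of all genes higher), and 0 in relapse against iCT (against 1.56% lower and 1.82% higher). The 361914 implied fragments of iCT mouse 1, to which array weights gave 0.10, limit what can be said of the iCT group.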

Other observations

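Of 22 MYC targets outside ribosome assembly 4 rose in iCT against vehicle (18.2%, against 3.31% of all genes) and 0 fell (against 6.31%), with a median of 0.16, and the first 3 by p were Ccnd2, a cyclin (log2 change 1.5, SE 0.25, limma adjusted p = 0.00446), Pa2g4, a nucleolar growth regulator (0.37, SE 0.09, adjusted p = 0.0251), and Eif4ebp1, an inhibitor of translation initiation (0.42, SE 0.10, adjusted p = 0.0253). Ccnd2 averaged 1.13 ± 0.299 FPKM in relapse, 5.18 ± 2.37 in iCT and 1.10 ± 0.400 in vehicle (SD, n = 4, 3 and 5), and its change was 1.78 without iCT mouse 1 (limma adjusted p = 0.00126). Without that mouse 2 of the 22 rose (9.09%, against 2.11%), and the adjusted p was 0.0795 for Pa2g4, 0.0719 for Eif4ebp1 and 0.127 for Ipo4, an importin that had passed with it (limma). In relapse against iCT 4 of the 22 fell (18.2%, against 3.1% of all genes), among them Ccnd2 (-1.47), Pa2g4 (-0.40) and Ran, a nuclear transport GTPase (-0.43), and 0 rose; Ccnd2 and Ran also passed with iCT mouse 1 left out, and Pa2g4 did not (adjusted p = 0.0583, limma). Of the 10 tested transcription factors of the MYC network 0 passed in iCT against vehicle, and Mxd4, a partner of MAX that opposes MYC, rose in relapse against iCT (0.91, SE 0.19, limma adjusted p = 0.0138).

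Of 13 tested genes of polyamine metabolism other than Odc1 and Srm 2 rose (15.4%, against 3.31% of all genes) and 1 fell (7.69%, against 6.31%) in iCT against vehicle. Mtap, which recycles the by-product of spermidine synthesis, averaged 12.8 ± 0.920 FPKM in relapse, 20.1 ± 1.76 in iCT and 14.2 ± 1.48 in vehicle (SD, n = 4, 3 and 5), and rose in iCT by 0.48 (SE 0.12, limma adjusted p = 0.0286). Dohh, of the hypusine pathway that uses spermidine, rose by 0.46 (adjusted p = 0.0457, limma), and Azin1, the inhibitor of antizyme that protects ornithine decarboxylase, fell by 0.52 on the log2 scale (adjusted p = 0.0461, limma). In relapse against iCT Mtap (-0.60) and Sat1, an enzyme of polyamine breakdown (-0.46), fell. Without iCT mouse 1 the adjusted p in iCT against vehicle was 0.0524 for Mtap, 0.133 for Dohh and 0.142 for Azin1. Between relapse and vehicle 0 genes of these 3 lists passed.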
